A study of Homo sapiens with 4 samples.

Results

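The genes described are 32 that estrogen induces in breast cancer cells, given as a list of symbols and found on the array as the probesets whose annotated symbol is exactly 1 of them (CCN5 under its older symbol WISP2 as well). They were matched by 431 probesets, of 232479 in the table, and 31 of the 32 genes had a value. All 31 passed a filter on dim probesets, on 413 probesets, and stand beside 15719 genes tested in all. MYBL1 was matched by no probeset and is not analysed here. The cells were T-47D, an established human line of luminal breast cancer, grown in DMEM with 10% serum. On 2 arrays the RNA came from cells given the p-27-5p mimic, an artificial microRNA, at 200 nM with the TurboFect reagent, and on 2 arrays from cells given a pre-miR negative control. The labels state no estrogen treatment or withdrawal, no dose of the control and no time of harvest. Nor do they say whether replicate arrays stand for separate cultures. The p-values therefore rest on array-to-array spread alone, and that spread may be technical.

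Estrogen acts in these cells through the receptor ESR1, a transcription factor that binds DNA at estrogen response elements together with pioneer factors such as FOXA1 and recruits coactivators. In luminal breast cancer this program drives secreted proteins, growth factor receptors and transcription factors, and its output is commonly read from genes such as GREB1, TFF1 and PGR. The values below are log2 levels, the mean of a gene's probesets on an array, and a change is the mimic mean minus the control mean on that scale. A probeset reads about 1 exon or a part of it. In bulk RNA, fewer cells of a type and less RNA per cell cannot be told apart.

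The control arrays carried the profile of the labelled line. The 11 luminal epithelial markers, among them KRT8, CDH1 and GATA3, lay between 8.97 and 12.40 in the control arrays, and the 4 measured basal markers between 4.59 and 6.40. Of the liver and neuron genes taken as background, 9 of 13 had a value and lay between 3.78 and 5.71 in the control arrays. The 6 leukocyte markers lay between 4.52 and 7.38 and the 7 fibroblast markers between 4.19 and 6.83. None of these markers passed the test between the groups. All 7 fibroblast markers and all 4 basal markers had a change above 0, with medians of 0.31 and 0.20, as 8 of the 9 background genes did, with a median of 0.28. The leukocyte markers had a median of 0.13, with 4 of 6 above 0, and the luminal markers -0.02, with 4 of 11 above 0. The part of these markers in the members' values was not tested. Interferon-stimulated indicator genes were the large difference between the groups. All 9 measured rose, by 3.07 to 7.66, and their mean level was 4.94 and 4.87 on the control arrays against 10.55 and 10.66 on the mimic arrays. This difference separates the same groups as every value given below, and its part in them was not tested.

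TFF3 alone of the 31 measured estrogen-induced genes passed the test, and it fell. The series calls its samples paired, and the fit reported here left the pairing out. With the replicate number as a block, PDZK1 passed as lower as well. Limma with Benjamini-Hochberg adjustment over all genes called 1 of the 31 lower (TFF3) and 0 higher, against 0.789% of all genes called lower and 1.52% called higher. At an unadjusted p under 0.05, 5 were lower and 2 higher, where 12.8% and 7.65% of all genes were. The change was under 0.25 in size for 21 of the 31 and under 0.5 for 28. The median change was -0.13, beside 0.0024 over all genes, and 25 members lay below 0, where 49.7% of all genes did. A member's 95% confidence interval reached a median of 0.32 to either side of its change. For 18 members the whole interval lay within a 1.5-fold change in either direction, and the intervals of the others reached beyond it.

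**Figure D1:**
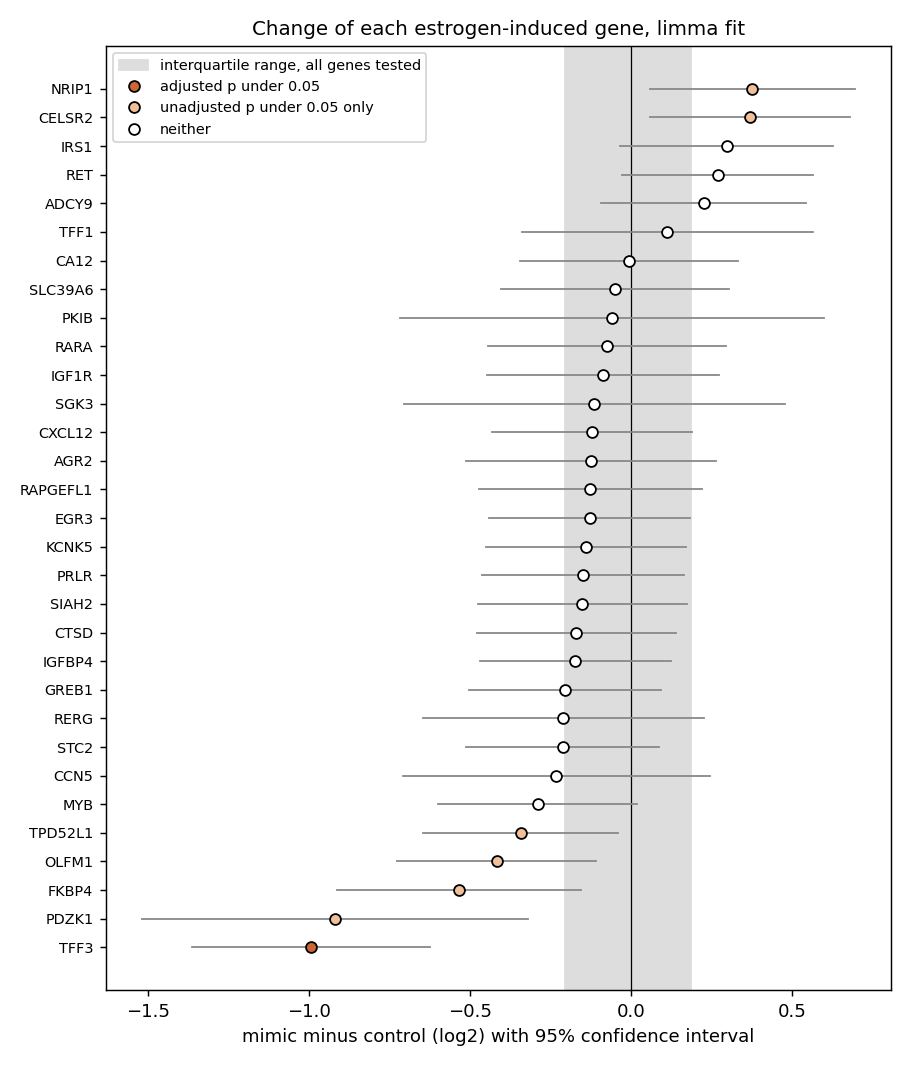
Change of each of the 31 measured genes (points, log2, mimic minus control) with limma's 95% confidence interval (lines), ordered by size. The grey band is the interquartile range of all genes tested. TFF3 and PDZK1 stand at -0.99 and -0.92 and NRIP1 and CELSR2 at 0.38 and 0.37, while most others lie in or near the band.

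Over all genes, the change differed with how bright the genes were, and most members were bright. The members' median control level was 9.0, against 6.60 over all genes, and 22 members stood at 8 or above in the control arrays. Brighter genes of the whole table were lower in the mimic arrays and dim ones higher. Among genes with a mean level of at least 10, the median change was -0.17 and 76.7% lay below 0, and all 8 members at that level lay below 0, with a median of -0.14. From 8 to 10, the median of all genes was -0.11 with 67% below 0, and that of the 13 members was -0.20 with 11 below 0. From 6 to 8 the 7 members had a median of -0.06, as did all 4963 genes at that level. Below 6 the median of all genes was 0.11, and the 3 members, RET, EGR3 and CCN5, had 0.27, -0.13 and -0.23. The part of the level in the members' median was not tested.

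**Figure D2:**
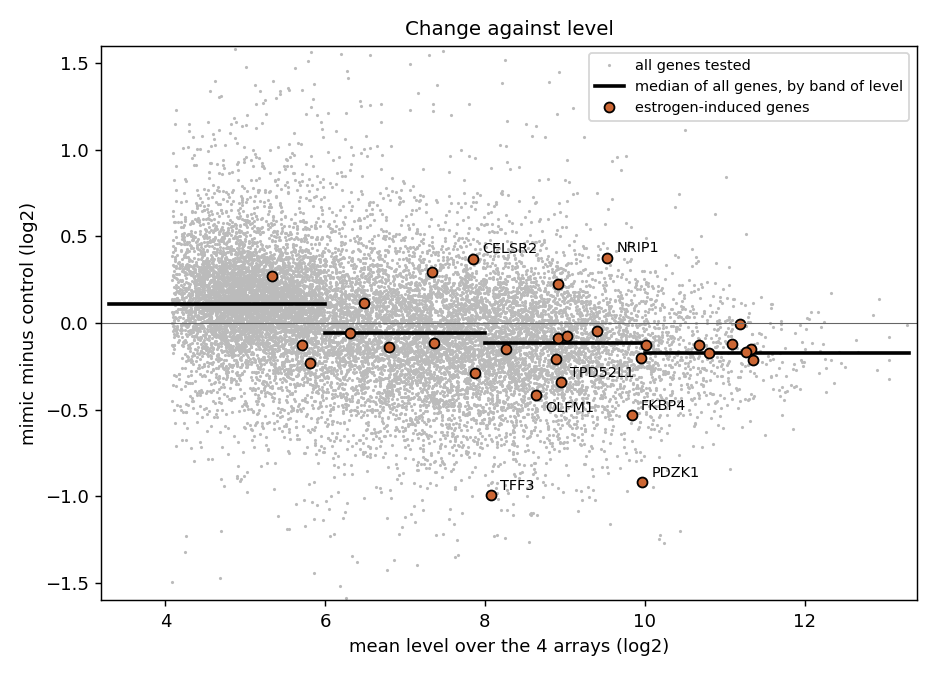
Change (mimic minus control, log2) against the mean level over the 4 arrays, for all genes tested (grey) and the estrogen-induced genes (orange, those with an unadjusted p under 0.05 named). Black bars are medians of all genes in bands of level, from 0.11 below 6 to -0.17 at 10 and above. Of all genes, 144 lie beyond the plotted range of change.

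Sequences of RefSeq promoters (build GRCh38.p14) were matched to 22 of the 32 members by symbol, in 33 windows reaching from 250 bases before to 50 after an annotated start. The estrogen response element, GGTCANNNTGACC, reads the same on both strands and was in 0 of the 33 windows, and in 0.057% of all 35116 windows. Its repeated unit GGTCA, searched on both strands and also a part of the full element, was in 11 of the 33 windows and in 37.4% of all windows. Letters missing from a window this short do not bear on binding by the receptor elsewhere. The windows of the member with the lowest change and of the member with the highest change among those matched are shown, the 250 bases before the first listed start, on the minus strand of chr1:145707401-145707650 for PDZK1 and of chr21:15065937-15066186 for NRIP1. Capitals mark GGTCA, which is present 1 time in the bases shown for PDZK1 and absent from those of NRIP1, although the second listed window of NRIP1 holds it on the opposite strand.
PDZK1: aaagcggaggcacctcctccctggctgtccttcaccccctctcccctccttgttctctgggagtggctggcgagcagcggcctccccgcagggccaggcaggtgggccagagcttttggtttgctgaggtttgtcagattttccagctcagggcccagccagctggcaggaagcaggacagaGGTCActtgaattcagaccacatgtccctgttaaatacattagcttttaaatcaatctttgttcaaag
NRIP1: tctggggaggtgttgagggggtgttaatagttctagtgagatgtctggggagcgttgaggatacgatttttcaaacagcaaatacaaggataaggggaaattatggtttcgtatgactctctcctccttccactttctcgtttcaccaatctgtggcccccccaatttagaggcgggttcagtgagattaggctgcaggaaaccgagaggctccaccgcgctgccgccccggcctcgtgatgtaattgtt

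Among the 8 secreted proteins, TFF3 alone passed the threshold, while 7, TFF3 included, had a change below 0, where 49.7% of all genes did. Of all genes at a mean level from 8 to 10, 67% lay below 0, and of those at 10 and above, 76.7%. TFF3 is a trefoil peptide that protects mucosal surfaces and is secreted by luminal breast cancer cells. Its level was 8.46 and 8.69 in the control arrays and 7.49 and 7.67 in the mimic arrays. The mimic arrays were the low ones, and the gap to the control arrays was wider than the spread within either group. The control mean was 8.57 ± 0.161 (SD, n = 2) and the mimic mean 7.58 ± 0.122 (SD, n = 2). The change was -0.99 (SE 0.146, limma adjusted p = 0.0417), which is 1.99-fold lower. All 6 of its probesets had mimic arrays below control arrays, as 27.1% of all named probesets that passed the filter did. From the largest to the smallest, their changes were -1.79, -1.58, -0.89, -0.81, -0.44 and -0.44, at control levels of 9.68, 7.62, 11.31, 9.45, 8.55 and 4.83. Limma called none of these probesets singly, with the adjustment over all 232479 probesets of the table. TFF3 missed the threshold without mimic replicate 1 (change -0.91, adjusted p = 0.201), without mimic replicate 2 (-1.08, adjusted p = 0.112), with the median of its probesets (adjusted p = 0.104) and with its brightest probeset (adjusted p = 0.143), and it passed under the other 9 alternatives, with an adjusted p as low as 0.00211.

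TFF1 is the trefoil peptide used as a standard readout of estrogen action. Its level was 6.21 and 6.65 in the control arrays and 6.50 and 6.58 in the mimic arrays, so that both mimic values lay between the control values. The change was 0.11 with a 95% confidence interval from -0.34 to 0.57. TFF1 stood near the middle of all genes, at the 47.6th percentile of control levels on 3 probesets. Its change was -0.10 without control replicate 1 and 0.33 without control replicate 2.

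The other secreted members were bright, with the exception of CCN5. OLFM1, a secreted glycoprotein, stood at 8.80 and 8.90 in control and 8.40 and 8.46 in mimic arrays. The change was -0.42 (limma adjusted p = 0.15). Of its 10 probesets, 6 had mimic arrays below control arrays and none above, beside 27.1% and 20.7% of all named probesets. STC2, a secreted stanniocalcin and the brightest member, stood at 11.43 and 11.49 in control and 11.26 and 11.22 in mimic arrays, a change of -0.21. IGFBP4, which binds insulin-like growth factors, had -0.17, and CXCL12, the chemokine that binds CXCR4, had -0.12. In these 4 genes the mimic arrays lay below the control arrays without overlap, as they did in 29.5% of all genes, but no change passed the threshold. At a mean level from 8 to 10 they did so in 47% of all genes, and at 10 and above in 57.2%. AGR2, a disulfide isomerase of the secretory pathway, and CCN5, a matricellular protein, had -0.12 and -0.23, with overlapping groups.

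**Figure D3:**
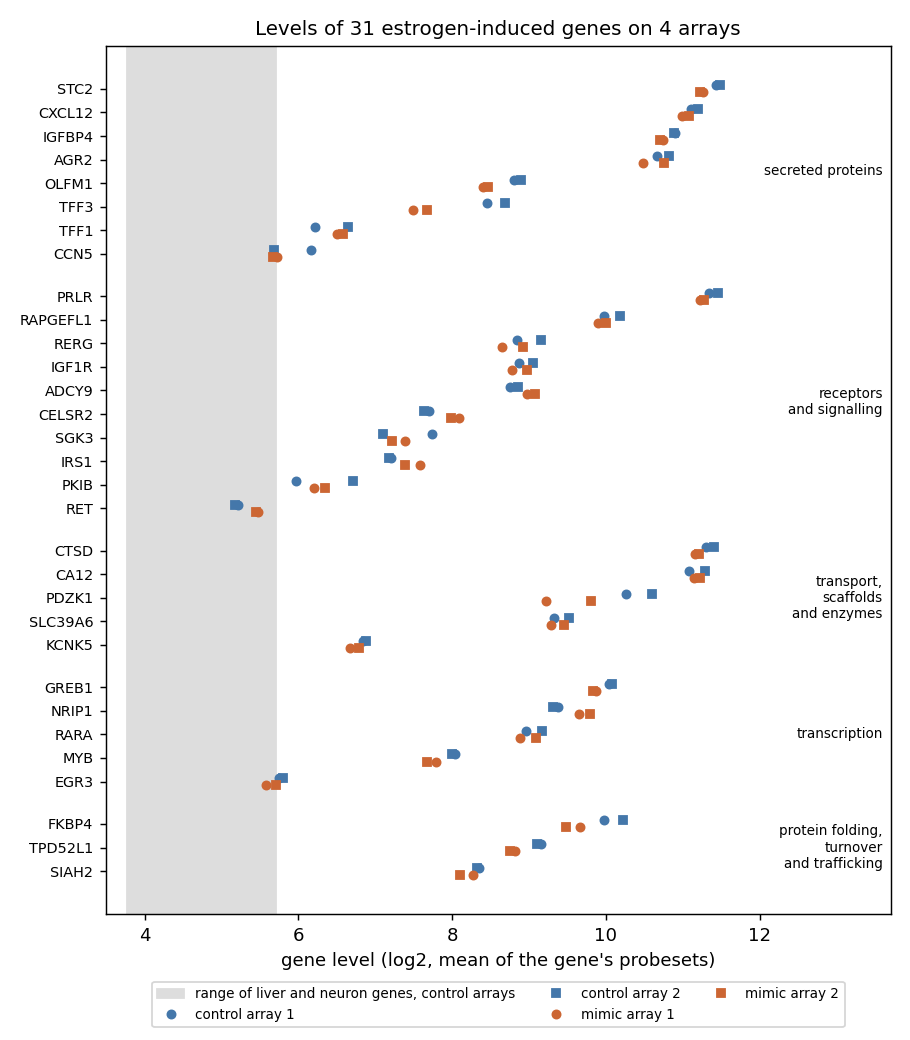
Level of each of the 31 measured genes (log2, mean of its probesets) on the control arrays (blue) and mimic arrays (orange), array 1 as circles and array 2 as squares, grouped by role. The grey band is the range of the liver and neuron genes in the control arrays, 3.78 to 5.71. All 4 arrays of RET lie inside it, and the 2 groups of TFF3, PDZK1, FKBP4 and OLFM1 are set apart.

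All 5 transporters, scaffolds and enzymes had a change below 0, where 49.7% of all genes did, with PDZK1 set apart from the rest. Among all genes that share was 67% at a mean level from 8 to 10 and 76.7% at 10 and above. PDZK1, a scaffold protein that anchors membrane transporters, stood at 10.26 and 10.60 in control and 9.22 and 9.80 in mimic arrays. The groups did not overlap, but the mimic arrays differed by more than those of any other member. The change of -0.92 (SE 0.237) had a limma adjusted p of 0.123, on a single probeset, and a 95% confidence interval from -1.52 to -0.32. With the replicate number as a block the adjusted p was 0.0491, without control replicate 1 it was 0.00863 (change -1.09), with no filter 0.0189, with an intensity trend 0.0204, and without mimic replicate 1 it was 0.432 (change -0.63). CTSD, the lysosomal protease cathepsin D, stood at 11.30 and 11.41 in control and 11.16 and 11.21 in mimic arrays, a change of -0.17. CA12, a carbonic anhydrase of the cell surface, stood at 11.09 and 11.29 in control and 11.15 and 11.22 in mimic arrays, with the mimic values between the control values and a change of -0.0059 (interval -0.34 to 0.33). The zinc transporter SLC39A6 had -0.05 and the potassium channel KCNK5 -0.14. CA12 changed sign in 7 of 13 alternatives and SLC39A6 in 3.

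Of the 10 receptors and signalling proteins, 6 had a change below 0, where 49.7% of all genes did, and 4 above. None passed the threshold. CELSR2, an adhesion receptor of the cadherin family, stood at 7.69 and 7.63 in control and 8.09 and 7.98 in mimic arrays. The change was 0.37 (limma adjusted p = 0.184), and mimic arrays lay above control arrays on 22 of its 38 probesets, beside 20.7% of all named probesets, and below on none. Its brightest probeset alone had -0.13. IRS1, which couples the insulin and IGF1 receptors to PI3 kinase, had 0.30, the receptor tyrosine kinase RET 0.27 and the adenylyl cyclase ADCY9 0.23. These 4 genes had both mimic arrays above both control arrays, as did 20.5% of all genes. RET stood at 5.21 and 5.18 in control and 5.48 and 5.45 in mimic arrays, inside the background range. The prolactin receptor PRLR stood at 11.33 and 11.46 in control and 11.22 and 11.27 in mimic arrays, a change of -0.15 with groups that did not overlap. IGF1R, the receptor of insulin-like growth factors, had -0.09, the RAS-related GTPase RERG -0.21, RAPGEFL1 -0.13, the kinase SGK3 -0.11 and PKIB, an inhibitor of protein kinase A, -0.06. The groups of these 5 overlapped. SGK3, read by 1 probeset, and PKIB differed by 0.453 and 0.524 (SD) between the control arrays, the widest spread of the members.

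Among transcriptional regulators the largest value was that of NRIP1, a corepressor of nuclear receptors that estrogen itself induces. It stood at 9.37 and 9.31 in control and 9.65 and 9.79 in mimic arrays, without overlap. The change was 0.38 (SE 0.126, limma adjusted p = 0.186), and the change of single probesets ran from -0.06 to 1.20. Mimic arrays lay above control arrays on 4 of its 6 probesets, beside 20.7% of all named probesets. With an intensity trend in the variance prior, NRIP1 passed as higher (adjusted p = 0.0477) and OLFM1 as lower (adjusted p = 0.0388). GREB1, a cofactor of the estrogen receptor and a direct target of it, stood at 10.04 and 10.07 in control and 9.87 and 9.83 in mimic arrays. The arrays within each group lay closer together than the groups, and the change was -0.20 (interval -0.50 to 0.09, limma adjusted p = 0.401). GREB1 was read by 46 probesets, the most of any member. Of these, 34 had mimic arrays below control arrays and 3 above, beside 27.1% and 20.7% of all named probesets. Probesets of 1 gene share the same arrays and are not independent. MYB, a proto-oncogenic transcription factor, had -0.29, with 7 of its 16 probesets below and 2 above. The early growth response factor EGR3 had -0.13 and the retinoic acid receptor RARA -0.07.

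**Figure D4:**
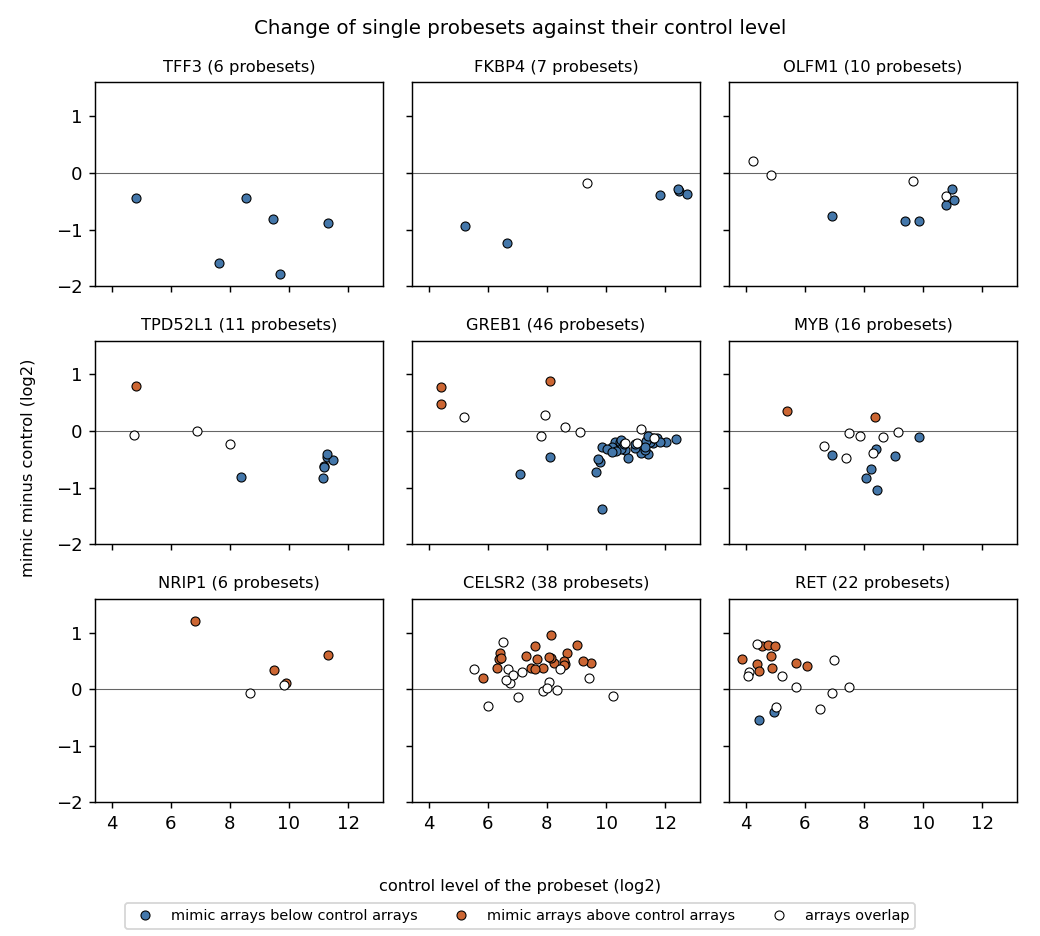
Change of single probesets (mimic minus control, log2) against their control level for 9 members, coloured by whether both mimic arrays lie below (blue) or above (orange) both control arrays or overlap (white). All 6 probesets of TFF3 and 34 of 46 of GREB1 are blue, and 22 of 38 of CELSR2 are orange. Over all named probesets that passed the filter, 27.1% lay below and 20.7% above.

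In the last group, of protein folding, turnover and trafficking, all 3 genes had mimic arrays below control arrays. So did 29.5% of all genes, and 47% of all genes at a mean level from 8 to 10. FKBP4, the HSP90 cochaperone of steroid receptors, stood at 9.98 and 10.23 in control and 9.66 and 9.48 in mimic arrays. The change was -0.53 (SE 0.15, limma adjusted p = 0.142). Of the 7 probesets of FKBP4, 6 had mimic arrays below control arrays and none above, beside 27.1% and 20.7% of all named probesets. Its dimmest probesets carried the largest changes, down to -1.23, and with probesets above the table's median the change was -0.31. Without control replicate 1 FKBP4 passed, at -0.66 (adjusted p = 0.0437), as it did with no filter (0.0436) and with an intensity trend (0.026). TPD52L1, which binds proteins of vesicle traffic, stood at 9.16 and 9.10 in control and 8.81 and 8.76 in mimic arrays, a change of -0.34 (limma adjusted p = 0.2). The ubiquitin ligase SIAH2 had -0.15, on 11 probesets of which 5 had mimic arrays below control arrays. Taking the median level of its probesets on each array gave 0.44, while the median of its single probesets' changes was -0.13.

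Over all 413 member probesets that passed the filter, 135 (32.7%) had both mimic arrays below both control arrays and 86 (20.8%) both above. Of all 163774 named probesets that passed it, 27.1% and 20.7% did. At the gene level 15 of the 31 members (48.4%) had mimic arrays below control arrays and 5 (16.1%) above, beside 29.5% and 20.5% of all genes. At a mean level of at least 10, 5 of 8 members (62.5%) and 57.2% of all genes had mimic arrays below control arrays, and from 8 to 10, 7 of 13 members (53.8%) and 47% of all genes. Within the array pairs of the same number, 22 members (71%) were lower in the mimic array of both pairs and 5 (16.1%) higher in both, beside 38.5% and 34.9% of all genes. The shares for the pairs were not split by level, and most members were bright.

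Other genes of the pathway were followed in 4 lists, and limma called 0 genes of them. Of 19 measured receptors and cofactors of estrogen action, 2 (ESR1 and ESR2) had an unadjusted p under 0.05 below 0, and 3 (CREBBP, EP300 and CARM1) above 0. Their median change was -0.0023. Of all genes, 12.8% were lower and 7.65% higher at an unadjusted p under 0.05. ESR1, the estrogen receptor of luminal cells, stood at 9.17 and 9.21 in control and 8.76 and 8.78 in mimic arrays, without overlap. Its change was -0.42 (SE 0.117, limma adjusted p = 0.139), and its brightest probeset alone had 0.03. Of its 15 probesets, 12 had mimic arrays below control arrays and none above, beside 27.1% and 20.7% of all named probesets. With an intensity trend ESR1 passed (adjusted p = 0.0293). CREBBP, a histone acetyltransferase and coactivator, had 0.42 (adjusted p = 0.167, 0.0467 with an intensity trend), FOXA1 -0.02 and the luminal factor GATA3 -0.02.

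PGR, the progesterone receptor, is a direct estrogen target outside the 32 members and very bright in T-47D cells. It stood at 11.39 and 11.65 in control and 10.78 and 11.06 in mimic arrays. On all 17 of its probesets the mimic arrays were the lower ones, without overlap, as on 27.1% of all named probesets. The change was -0.60 (SE 0.164, limma adjusted p = 0.135), -0.73 without control replicate 1, where it passed (adjusted p = 0.0332), and -0.24 on its brightest probeset. It also passed with no filter (0.0352) and with an intensity trend (0.0215). Of the 14 measured genes in that list of other estrogen-induced genes, 4 lay below 0 with an unadjusted p under 0.05 (PTGES, PGR, KRT19 and HSPB8) and 2 above (SERPINA3 and MYC). Their median was -0.20. Over all genes, 12.8% were lower and 7.65% higher at that unadjusted p. The protease inhibitor SERPINA3, an acute phase protein, had 0.83 (adjusted p = 0.0606) from a control level of 4.97, inside the background range, and 0.12 with probesets above the table's median. It passed without control replicate 1 (adjusted p = 0.0294) or 2 (0.0122), with no filter (0.00864) and with an intensity trend (0.0318). The prostaglandin E synthase PTGES had -0.47 (adjusted p = 0.125, 0.0236 with an intensity trend) and -0.20 on its brightest probeset, and cyclin D1, CCND1, -0.0057.

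Genes that estrogen represses, and those that make or degrade it, form the remaining lists. Of the 5 estrogen-repressed genes, 0 had an unadjusted p under 0.05. The median was 0.19, with CCNG2, a cyclin linked to growth arrest, at 0.20 and the growth factor TGFB3 at 0.22. Over all genes, 12.8% were lower and 7.65% higher at that unadjusted p. Among 8 measured genes of estrogen synthesis and metabolism, 1 lay below 0 and 1 above at an unadjusted p under 0.05. These were HSD17B4, a peroxisomal enzyme that can oxidise estradiol, at -0.31 (adjusted p = 0.242) and the estrogen hydroxylase CYP1A1 at 0.68 (adjusted p = 0.245, and 0.026 without control replicate 1), which was read by 1 usable probeset at a background level of 4.14 and had 0.019 with no filter.

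**Figure D5:**
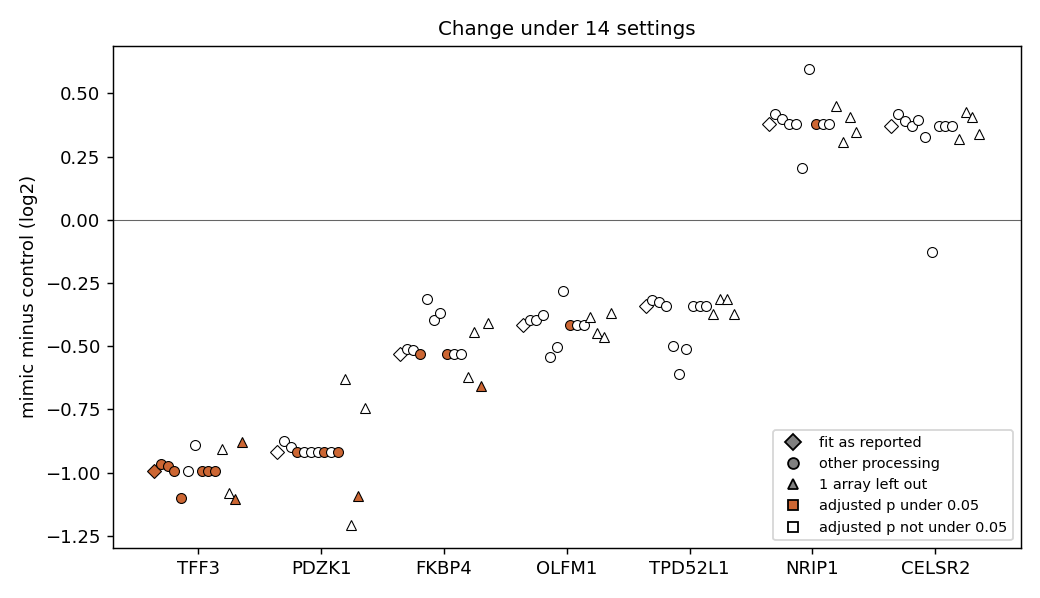
Change (mimic minus control, log2) of the 7 members with an unadjusted p under 0.05, in the fit as reported (diamond), under 9 other ways of processing (circles) and with 1 array left out (triangles). Filled symbols have an adjusted p under 0.05. TFF3 stays between -1.11 and -0.88 and PDZK1 between -1.21 and -0.63, while CELSR2 changes sign with its brightest probeset.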

How the data were processed

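Total RNA of T-47D cells was measured on Affymetrix exon arrays, 2 with the mimic and 2 with the negative control. The deposited table holds log2 values per probeset and array. Partek, RMA and the genome build hg18 are named in the submitters' processing notes, and the order and versions are not given in the sources used here. The interquartile range of the arrays ran from 4.18 to 4.52, so the values do not share 1 distribution. The precision is limited by the number of arrays.

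Symbols came from GEO's platform annotation, updated through RefSeq synonyms: 216780 probesets had 1 symbol, 2335 several and 13364 none. Gene values are means over the probesets annotated to that gene alone, kept where the mean over the 4 arrays reached the table's 25th percentile (4.08). Groups were compared over all genes with limma 3.58.1 (lmFit, eBayes; R 4.3.3), two-sided, adjusted by Benjamini-Hochberg, at a threshold of 0.05. There were 2 residual degrees of freedom, or 5.29 once the prior was added. Single probesets were tested by the same fit without the filter, adjusted over all 232479 probesets of the table. Shares of all named probesets are over the 163774 with 1 symbol that passed the filter. The fit was tested on simulated data. Python 3.11.15 with matplotlib 3.10.9 drew the plots.

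All members were named. Values per array are given for those past the threshold, at an unadjusted p under 0.05, with the 4 highest control levels, or with the smallest p of a role group, and also for TFF1, GREB1 and RET, which were chosen after their values were seen. Of the pathway lists the text names ESR1, PGR, FOXA1, GATA3 and the 2 genes with the smallest p of each list, and also CCND1, which was chosen after its value was seen. ESR2, EP300, CARM1, KRT19, HSPB8 and MYC are named after their values were seen, only to spell out counts of 5 or fewer, and were not followed through the alternatives. The members and lists were chosen with earlier results of these data known, so no list was tested.

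The series calls its samples paired without saying what the pairs share. Deviations of same-numbered arrays from their group means correlated over genes (r = 0.435). The block on replicate number was an alternative, with quantile normalization, equal array medians, other filters and gene summaries, other variance priors and each array left out.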

Additional observations from a re-analysis of the deposited data

How the results depend on the processing

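The count of genes past the threshold, 363, was 498 with the replicate block, 1433 with no filter, 122 with the brightest probeset, 1594 with an intensity trend, and 172 (without mimic replicate 1) to 1691 (without control replicate 1) with 1 array left out, 186 without mimic replicate 2 and 690 without control replicate 2. Members past it as lower, 1 as reported, were 2 with the replicate block (TFF3 and PDZK1), 3 with no filter, 4 with an intensity trend, 0 with the median of probesets or the brightest probeset, and 0 (without either mimic array) to 3 (without control replicate 1) with 1 array left out. With an intensity trend 1 member, NRIP1, was higher. The replicate block changed no other call of a gene followed through the alternatives. The median over the members ran from -0.18 to -0.08, and 19 to 25 of them lay below 0. Over 13 alternatives, 26 of 31 members kept their side of the threshold and 17 their sign, and no value of opposite sign was called. The causes were not tested. With the brightest probeset TFF1 had -0.041, CXCL12 0.24, CCN5 0.51, IGF1R 0.040, CELSR2 -0.13, RERG 0.25, CA12 0.054, RARA 0.019, ESR1 0.026 and GATA3 0.040. With the median of probesets RAPGEFL1 had 0.055, PKIB 0.094, CA12 0.040, SLC39A6 0.072, RARA 0.061 and SIAH2 0.44. CA12 had 0.030 with quantile normalization, 0.013 with equal array medians and 0.0073 with probesets above the table's median. FOXA1 had 0.015 and GATA3 0.017 with quantile normalization, and FOXA1 0.0026 with probesets above the table's median. With 1 array left out, AGR2 ran from -0.27 to 0.018, CA12 from -0.11 to 0.10, CCN5 from -0.47 to 0.0080, FOXA1 from -0.16 to 0.11, GATA3 from -0.13 to 0.077, IGF1R from -0.18 to 0.010, PKIB from -0.43 to 0.31, RARA from -0.18 to 0.028, SGK3 from -0.43 to 0.21, SLC39A6 from -0.14 to 0.045 and TFF1 from -0.10 to 0.33.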
